A study of Rattus norvegicus with 115 samples.

Results

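Epithelial RNA of carcinogen-induced rat mammary tumours was compared between rats given LY2157299 and rats given vehicle. LY2157299, also called galunisertib, blocks the kinase of TGFBR1, the type I receptor for transforming growth factor beta (TGF-beta). Members were all count columns in which Ptprc, the gene of the leukocyte protein CD45, lay below 150 CPM (counts scaled to a column total of 1000000), the epithelial adhesion gene Epcam lay at 300 CPM or more, and Epcam exceeded Col1a1, the fibroblast collagen gene. This rule, which uses measured levels, gave 6 columns of 4 LY rats and 8 columns of 5 Vehicle rats, together 14 of the 42 columns of these treatments and 12.96% of all count columns, which came from 36 rats. Columns of a rat were summed, since treatment was given to the rat, and the rat is the replicate throughout.

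The rats were virgin Sprague Dawley animals in which N-nitroso-N-methylurea (NMU, 50 mg/kg, 1 to 3 intraperitoneal injections at an age of 35 to 53 days) had induced tumours, in both groups alike. LY2157299 or vehicle was begun once tumours could be felt, and the doses and the length of treatment are given in none of the sources used. The LY rats were P17, P19, P21 and P22 and the Vehicle rats P10, P39, P4, P7 and P8, and values per rat are given in these orders. Rat P22 gave 3 columns of 2 tumours, P39 3 columns of 2 tumours, P7 2 columns of 1 tumour, and the other rats 1 column each. In the same cohort 7 rats given an antibody against PD-L1 (PDL1) and 5 given the antibody with the inhibitor (PDL1+LY) had 12 epithelial columns each.

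TGF-beta binds TGFBR2, which activates TGFBR1, and TGFBR1 phosphorylates SMAD2 and SMAD3, which enter the nucleus with SMAD4 and switch target genes such as Smad7. In mammary epithelium the pathway restrains proliferation and is known to promote matrix production and loss of epithelial junctions. The ducts hold an inner luminal layer (Krt8, Krt18) and an outer basal or myoepithelial layer (Krt5, Krt14, Acta2), and milk genes mark secretory differentiation.

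Epithelial markers were high in every rat. Krt8 lay at 5650, 2761, 4004 and 5396 CPM in the LY rats and at 9200, 4532, 1679, 4604 and 2779 CPM in the Vehicle rats. Epcam per column, which the rule used, ran from 1624 to 2670 CPM in the LY columns and from 1729 to 3032 CPM in the Vehicle columns. The basal markers Krt5, Krt14 and Tp63 summed to between 163 and 430 CPM in LY and between 140 and 257 CPM in Vehicle rats, with Tp63 at 0 in LY rat P21. Nearest to the limit on Col1a1, a column of P7 lay just inside with Epcam at 2063 and Col1a1 at 1866 CPM, and a column of P4 lay just outside with 866 and 1517 CPM. The rule left out 2 further columns of LY rats and 7 of Vehicle rats that were also low in Ptprc, in all of which Col1a1 exceeded Epcam.

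Column headers name a rat and a tumour but no sorted fraction, and the labels list CD45, Ep and DN fractions. Of the 11 tumours, 3 have no sample labelled Ep, and these held 4 of the 14 columns (2 of LY, 2 of Vehicle rats). They are the 2 columns of tumour P22T2, for which the deposited sample table does list an Ep row, and the columns of P10 and of tumour P39T1. The only sample of P10 is labelled DN. For P22T1, which has a sample labelled Ep, that sample table gave no Ep row. In column order, the non-leukocyte columns of the 4 treatment groups first follow the tumours of the DN samples. Then they follow those of the Ep samples, with P22T2 in place of P22T1. By this order, which no header states, the columns of P10, P39T1 and P22T1 were DN. So were the columns with more Col1a1 of P39T3, P7T1 and P22T2, and the rest of the 14 were Ep. Over all 4 treatment groups 11 tumours had 2 epithelial columns each, and in 11 of 11 the column with more Col1a1 also had more of the myoepithelial gene Acta2. For Krt5 and for Krt14 this held in 9 of 11 each. Results were therefore also computed with 1 column per tumour, the one of lowest Col1a1, from tumours with a sample labelled Ep, which kept the 4 LY rats and Vehicle rats P39, P4, P7 and P8. For LY rat P22 this kept the column of P22T1, which was in batch 3 and by the order above DN. Values with 1 column per tumour are therefore not of Ep columns alone. With that selection edgeR called 0 genes of 12410, and 1030 had an unadjusted p under 0.05. Total counts per column were 9464005 to 15723482 in LY and 5308021 to 25848279 in Vehicle rats. By the deposited sample table the LY columns belonged to batch 2 except tumour P22T1, and the Vehicle columns to batch 2 except P10 and tumour P39T1, which were in batch 3. No pair of columns held identical values.

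Columns also differed in how many genes they detected and in transcripts of other cells. At 4000000 counts drawn per column, LY rats detected 11596 ± 612 genes (SD, n = 4) and Vehicle rats 13153 ± 903 genes (SD, n = 5), a difference of -1557 with the 4 LY rats all below the 5 Vehicle rats (exact two-sided permutation test, p = 0.02381). The leukocyte markers Ptprc, Cd3e, Cd68 and Ms4a1 summed to 145, 33.9, 230 and 18.3 CPM in LY and to 15.8, 7.20, 13.8, 74.6 and 9.93 CPM in Vehicle rats. They were highest in LY rats P17 and P21, and the B cell marker Ms4a1 was near 0 in all rats. The fibroblast markers Col1a1, Dcn, Lum and Pdgfra summed to 394, 133, 395 and 100 CPM in LY and to 1858, 94.1, 288, 4283 and 160 CPM in Vehicle rats, with Vehicle rats P10 and P7 far above the others. Summed endothelial markers (Pecam1, Cdh5) stayed within 0.447 to 28.6 CPM and pericyte markers (Rgs5, Cspg4) within 1.49 to 59.1 CPM. In summed tissue RNA, fewer cells of a type and less RNA per cell cannot be told apart.

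The first question was which epithelial genes differed between LY and Vehicle rats. No gene passed: by edgeR's quasi-likelihood test, 0 of 13027 genes tested (0%) had an adjusted p under 0.05, and the smallest adjusted p was 0.616. At an unadjusted p under 0.05 there were 902 genes (6.92%), of which 168 (1.29%) lay higher and 734 (5.63%) lower in LY rats. limma voom also gave 0 genes (630 at an unadjusted p under 0.05), whereas DESeq2 called 4 of 12990 (0.0308%), Nostrin, Mmp27, Tex47 and Msx3, all lower in LY rats, beside 1211 at an unadjusted p under 0.05. The fitted log2 fold change of Msx3 was -21.6, and Msx3 was not among the 20 genes with the smallest edgeR p. With only the LY and Vehicle rats DESeq2 called 12 genes, 2 of them higher, and of the 4 genes above only Tex47 was among them. Without the columns that detected over 14000 genes, 2 of Vehicle rats (P4, and 1 of the 2 columns of P7) and 4 of PDL1 rats in the same fit, 553 genes of 12161 had an unadjusted p under 0.05, 184 higher and 369 lower. Within batch 2 (4 LY and 4 Vehicle rats) 0 genes passed after adjustment and 1185 had an unadjusted p under 0.05. Since no gene passed edgeR's test, the levels that follow are given as values, with the SE of each log2 fold change.

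The genes with the smallest p were mostly genes of very low level. Of the 20 with the smallest p, 19 lay lower in LY rats, 17 had an average log2 CPM below 1, and 9 had no count in any LY rat. Those 9 passed the filter on low counts only through rats of other groups, so they could not come out higher in LY rats. Many are known from nerve cells or other tissues: Tnr and Ncan encode matrix proteins of brain, Gpm6a a neuronal membrane protein, Kcnj6 a potassium channel, Scn7a a sodium channel, Aqp4 a water channel and Sim1 a transcription factor of the hypothalamus. Lin28a encodes an RNA-binding protein of early embryos, Epha3 an ephrin receptor and Pde1a a phosphodiesterase.

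Nostrin, whose protein controls where endothelial nitric oxide synthase sits in the cell, had 0, 0, 0 and 0.0774 CPM in LY rats and 0.751, 1.78, 8.56, 4.76 and 0.385 CPM in Vehicle rats. The groups did not overlap, and P4 and P7 were the highest. These levels rest on 3 counts against 220, with a log2 fold change of -6.46 ± 1.48 and an unadjusted edgeR p of 0.000276. Nostrin too passed the filter through rats of other groups, so its p is given as a description. Mmp27, a matrix metalloproteinase gene, had no count in LY rats and 1.05, 0.121, 0.982, 15.5 and 0.577 CPM in Vehicle rats. Its 299 Vehicle counts place it at least 75-fold lower in LY rats, taking 3 counts over the group as the floor, and 240 of them came from 1 column of P7. The same bound was 42.4-fold for Gpm6a, 20.6-fold for Sim1, 28.4-fold for Epha3, 40.9-fold for Kcnj6 and 51.9-fold for Pde1a, and 23.8-fold for both Ncan and Aqp4.

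The Vehicle rats P4 and P7 were most often the highest. P4 was the highest rat for 12 of the 20 genes and P7 for 3. The 18 of the 20 genes with an average log2 CPM below 3 on the lower side summed to between 1.80 and 2.86 CPM per LY column and to between 11.7 and 102.1 CPM per Vehicle column, highest in P4 (102.1 CPM) and in both columns of P7 (92.4 and 75.6 CPM). Of these columns, that of P4 and the first of P7 detected the most genes (14364 and 15283), while the second of P7 detected 11868, the fewest of the Vehicle columns and within the LY range of 10721 to 12087. These 18 genes were chosen by this contrast, so the gap between the groups is a description. Among the 734 genes on the lower side, 69.8% had an average log2 CPM below 1, against 16.1% of all genes tested. The part of the number of genes detected in these differences was not tested, and 13 of the 20 genes could still be tested without the columns of over 14000 genes.

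**Figure D1:**
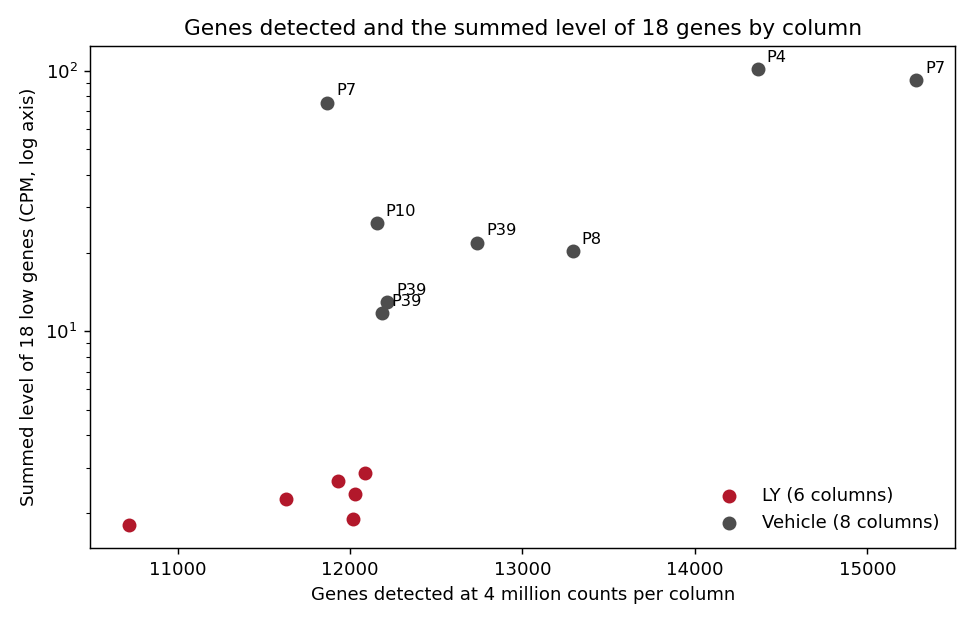
Each point is 1 epithelial column, with the number of genes detected at 4000000 counts on the horizontal axis and the summed level of the 18 low genes (CPM, log axis) on the vertical axis. LY columns sit between 1.80 and 2.86 CPM and Vehicle columns between 11.7 and 102.1 CPM, and the 2 columns beyond 14000 genes are both from Vehicle rats.

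Among genes whose log2 CPM averaged 3 or more, lower and higher values were about equally common. Of 9121 such genes 295 (3.23%) had an unadjusted p under 0.05, 142 higher and 153 lower in LY rats. Over all genes tested, 59 lay higher (0.453%) and 188 lower (1.44%) in every LY rat than in every Vehicle rat. The following genes of this better-measured class were chosen after their values were seen, apart from Nop16 and Ptprs, which were among the 20 with the smallest p.

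Nop16, a nucleolar protein gene of ribosome assembly, lay at 167, 186, 150 and 129 CPM in LY rats and at 87.6, 118, 102.3, 98.7 and 113 CPM in Vehicle rats. Every LY rat was above every Vehicle rat, with a log2 fold change of 0.60 ± 0.16 and an unadjusted edgeR p of 0.000834. It was 0.56 without the columns of over 14000 genes and 0.58 within batch 2. Mak16, also of ribosome assembly, lay higher in every LY rat (0.62 ± 0.21), as did Apip of the methionine salvage pathway (0.69 ± 0.22), Phyhd1 (0.58 ± 0.19) and Rgs2, a brake on G protein signals (0.91 ± 0.29).

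Tgfbrap1, which encodes a protein that binds TGF-beta receptors and also acts in endosome tethering, lay at 9.65, 12.5, 13.3 and 15.6 CPM in LY rats and at 16.3, 30.6, 16.1, 25.1 and 30.4 CPM in Vehicle rats. All LY rats were below all Vehicle rats, although P22 and P4 differed little, with a log2 fold change of -0.89 ± 0.30 and an unadjusted edgeR p of 0.00667. Tpcn1, an endolysosomal ion channel gene (-0.70 ± 0.22), and Enc1, which encodes an actin-binding protein (-1.88 ± 0.58), also lay lower in every LY rat. Ptprs, a receptor tyrosine phosphatase gene, lay at 34.4, 46.4, 46.1 and 84.6 CPM against 180, 98.9, 56.3, 71.6 and 163 CPM, so that only P22 reached into the range of the Vehicle rats (log2 fold change -1.11 ± 0.32). Abca1, the cholesterol exporter, had a log2 fold change of -0.99 ± 0.33.

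Cygb, which encodes the oxygen-binding protein cytoglobin, is one of the 18 low genes. It lay at 2.53, 1.69, 2.01 and 2.50 CPM in LY rats and at 13.02, 2.24, 10.1, 33.4 and 1.60 CPM in Vehicle rats. Vehicle rats P10 and P7, the highest for Cygb together with P4, were also the highest for fibroblast markers. The log2 fold change was -2.46 ± 0.73, and it was -0.42 when only columns with Col1a1 below Epcam divided by 10 were kept, which left the 4 LY rats and Vehicle rats P39, P7 and P8. The part of fibroblast RNA in the levels of Cygb was not tested beyond this value.

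The next question was whether the TGF-beta pathway itself differed. Of 23 ligand, receptor and latency genes tested, 4 lay above a log2 fold change of 0 and the median was -0.29, beside 45.9% above 0 and a median of -0.04 over all genes tested. With 1 column per tumour 14 of 23 lay above 0 and the median was 0.21. The inhibited receptor gene Tgfbr1 lay at 29.3, 13.8, 35.2 and 12.9 CPM in LY rats and at 49.3, 25.6, 8.56, 17.8 and 26.4 CPM in Vehicle rats. The groups overlapped throughout, with a log2 fold change of -0.17 and a 95% interval of -1.09 to 0.75. LY2157299 acts on the kinase, so the level of this transcript is no check of the treatment.

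Tgfbr2, the type II receptor gene, lay at 30.2, 20.8, 11.5 and 26.5 CPM in LY rats and at 64.2, 40.3, 6.46, 40.8 and 34.03 CPM in Vehicle rats. The LY rats were below all Vehicle rats but P4, and the log2 fold change was -0.74 (95% interval -1.66 to 0.19). The ligand gene Tgfb1 lay at 7.67, 4.88, 20.1 and 7.46 CPM against 6.66, 10.3, 11.4, 11.3 and 28 CPM, without separation (-0.43, 95% interval -1.75 to 0.89). Acvr1b, the type I activin receptor gene, was the 1 gene of this list at an unadjusted p under 0.05, beside 5.63% of all genes on the lower side. It lay at 5.32, 3.98, 0.336 and 4.77 CPM in LY rats and at 10.5, 7.35, 6.60, 7.11 and 10.7 CPM in Vehicle rats, lower in every LY rat and lowest in P21 (log2 fold change -1.22 ± 0.52).

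Of the SMAD transducers and feedback genes, 4 of 14 tested lay above 0, the median was -0.20 and none had an unadjusted p under 0.05. Usp15, which removes ubiquitin from TGFBR1, was at -0.39 ± 0.19, and Smad3 at -0.46 ± 0.29. The feedback inhibitor Smad7, itself a target of the pathway, lay at 21.2, 34.4, 11.5 and 43.1 CPM in LY rats and at 40.5, 34.6, 44.3, 36.8 and 24.7 CPM in Vehicle rats. P21 was the lowest and the other LY rats lay within or near the Vehicle range (log2 fold change -0.39 ± 0.42).

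Target genes of TGF-beta did not share a direction. Of 30 tested, 14 lay above 0, with a median of -0.05 and 1 gene at an unadjusted p under 0.05. Pmepa1, a feedback gene of the pathway, lay at 453, 218, 287 and 165 CPM in LY rats and at 93.3, 160, 79.99, 304 and 720 CPM in Vehicle rats. The Vehicle rats spanned a wider range than the LY rats, with a log2 fold change of 0.05 ± 0.58.

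Tgfbi, a matrix protein gene induced by TGF-beta, was the 1 target gene of 30 at an unadjusted p under 0.05. Of all genes, 5.63% had one on the lower side. It lay at 15.2, 18.3, 9.84 and 9.91 CPM in LY rats and at 60.2, 9.95, 7.86, 45.7 and 66.9 CPM in Vehicle rats. P10, P7 and P8 were above all LY rats, and P39 and P4 were within or below their range (log2 fold change -1.52 ± 0.71). Mmp2, a matrix metalloproteinase gene, was at -2.14 ± 1.10 and Snai2, a repressor of epithelial genes, at 1.34 ± 0.75. Among columns low in Col1a1 the median of the target genes was 0.33, within batch 2 it was 0.27, and with 1 column per tumour it was 0.55 with 24 of 30 above 0 and Mmp2 at 0.33.

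BMP signalling genes, which act through other type I receptors, lay above 0 in 11 of 16 tested, with a median of 0.12. Bmpr2, the type II BMP receptor gene, was at -0.61 ± 0.28 and had the 1 unadjusted p under 0.05 of this list. On the lower side 5.63% of all genes had one. Id4, a transcription regulator of the ID family found in basal mammary cells, lay at 59.3, 88.8, 76.6 and 79.7 CPM in LY rats and at 24.9, 48.8, 58.5, 59.5 and 24.4 CPM in Vehicle rats. The lowest LY rat, P17, was just below the highest Vehicle rat, P7, and the log2 fold change was 0.82 ± 0.46.

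**Figure D2:**
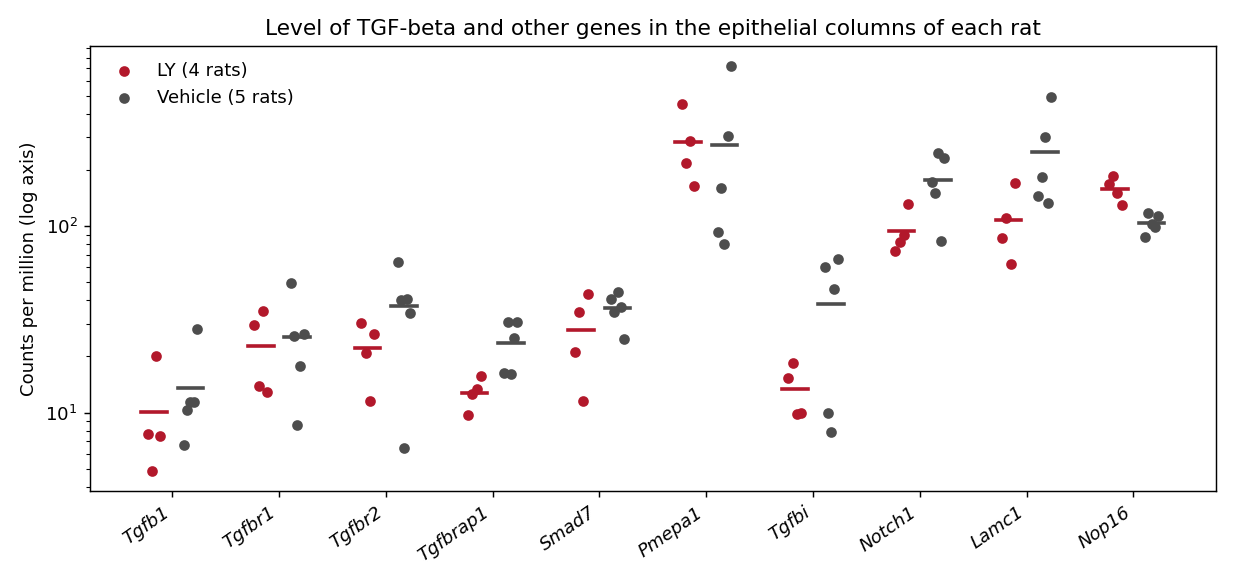
Points are the levels (CPM, log axis) of TGF-beta pathway genes and other named genes in each LY and each Vehicle rat, with the epithelial columns of a rat summed, and horizontal lines are group means. The 4 LY and 5 Vehicle rats overlap for Tgfbr1, Tgfb1 and Pmepa1, and the LY rats lie above all Vehicle rats for Nop16 and below all of them for Tgfbrap1.

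Luminal identity genes had small fold changes, and of 21 tested 8 lay above 0, the median was -0.15 and none had an unadjusted p under 0.05. Grhl2, a transcription factor of epithelial junctions, was at -0.52 ± 0.27, the tight junction genes Tjp1 and Cldn7 at -0.46 ± 0.29 and -0.56 ± 0.36, and Krt8 at -0.03 ± 0.42. Basal and myoepithelial genes had 6 of 17 above 0, a median of -0.12 and none at an unadjusted p under 0.05. Krt5 lay at 91.4, 158, 109.2 and 295 CPM in LY rats and at 95.2, 111, 120, 78.1 and 113 CPM in Vehicle rats, with P22 and P19 the highest (log2 fold change 0.66 ± 0.50). Krt14 was at 0.74 ± 0.70 and the laminin chain gene Lamb3 at -0.80 ± 0.53. The median of the basal list was 0.43 without Vehicle rat P4, -0.62 without LY rat P22 and 0.10 with 1 column per tumour.

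Milk and alveolar genes lay above 0 in 18 of 21 tested, with a median of 0.38, or 0.12 without the columns of over 14000 genes and 1.32 with 1 column per tumour. Their levels were uneven among rats. Glycam1, which encodes a mucin of milk, was at 0, 0, 0 and 118 CPM in LY rats and at 2.10, 1.21, 1.96, 0.723 and 0.128 CPM in Vehicle rats, so that its fitted log2 fold change of 4.60 ± 2.15 rests on P22 alone and became -7.51 without it. Ltf, lactoferrin, had no count in LY rats and at most 2.67 CPM in a Vehicle rat. The casein gene Csn2 lay at 12.4, 1.49, 14.4 and 419 CPM against 1302, 55.6, 0.982, 18.7 and 0.513 CPM, highest in Vehicle rat P10. Hormone response genes lay above 0 in 6 of 12 tested with a median of -0.05, and Pgr, the progesterone receptor gene, was at 0.72 ± 0.80.

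Proliferation genes, which TGF-beta is known to restrain, lay above 0 in 21 of 27 tested with a median of 0.26, and none had an unadjusted p under 0.05. Summed over the 27 genes they lay at 452, 901, 619 and 1286 CPM in LY rats and at 683, 819, 849, 624 and 576 CPM in Vehicle rats. P22 was the highest and P17 the lowest of all rats, so the groups overlapped. Pcna, the sliding clamp of DNA replication, was at 0.31 ± 0.27 and the helicase gene Mcm7 at 0.26 ± 0.27. With only columns of Ptprc below 50 CPM and Epcam of at least 1000 CPM, which kept LY rats P19 and P22 and all Vehicle rats, the median was 0.75. With 1 column per tumour it was -0.60 with 4 of 27 above 0, so the direction of this list depended on the columns used. Growth arrest and apoptosis genes had 11 of 18 above 0 and a median of 0.11, with Gadd45a, a stress-induced arrest gene, at 0.58 ± 0.45.

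Respiratory chain genes encoded in the nucleus lay above 0 in 18 of 24, with a median of 0.10. Uqcrfs1, the iron-sulfur subunit of complex III, was at 0.37 ± 0.17 with an unadjusted edgeR p of 0.0460. Sdhb, a subunit of succinate dehydrogenase, lay at 262, 252, 257 and 246 CPM in LY rats and at 173, 202, 217, 242 and 220 CPM in Vehicle rats. All LY rats were above all Vehicle rats by a narrow margin, with a log2 fold change of 0.27 ± 0.14. Hypoxia and glycolysis genes had 4 of 18 above 0 and a median of -0.26, cholesterol and fatty acid synthesis genes 7 of 21 and -0.11, and unfolded protein response genes 10 of 14 and 0.16, none with an unadjusted p under 0.05. Fasn, fatty acid synthase, was at -0.84 ± 0.56.

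**Figure D3:**
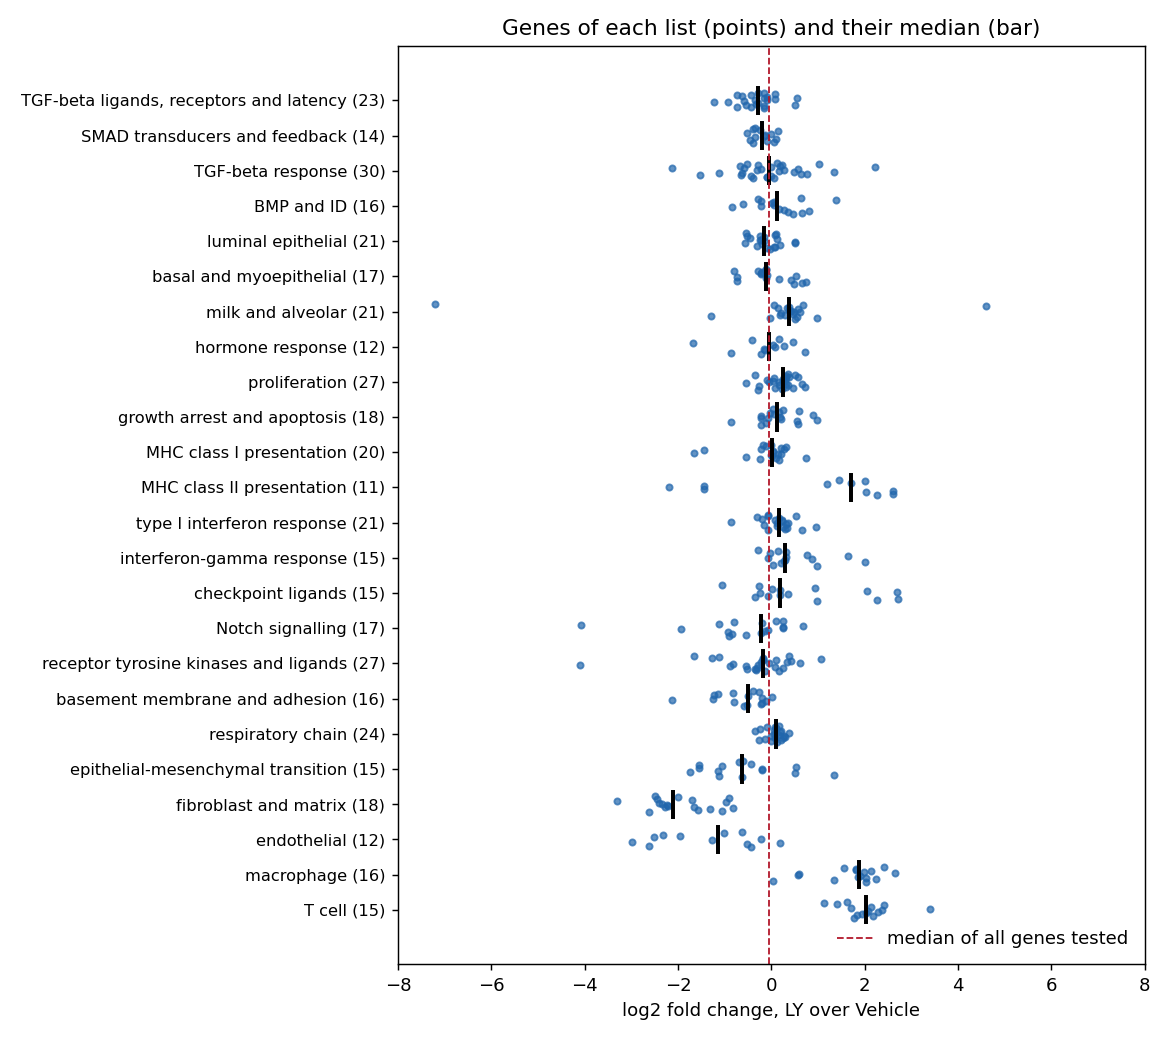
Each row is a gene list, each point a gene of it at its log2 fold change of LY over Vehicle, and each bar the list's median. Medians of the luminal, basal, TGF-beta response and respiratory chain lists lie at -0.15, -0.12, -0.05 and 0.10. Those of the TGF-beta ligand and receptor, milk and basement membrane lists lie at -0.29, 0.38 and -0.51. The macrophage, T cell and MHC class II medians lie at 1.88, 2.04 and 1.72, and that of the fibroblast list lies at -2.10.

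Antigen presentation genes of class II lay higher in LY rats and moved with leukocyte markers. Of 11 tested, 8 lay above 0 with a median of 1.72, and 3 had an unadjusted p under 0.05, which 1.29% of all genes had on this side. RT1-Da, a class II alpha chain gene, lay at 968, 219, 1191 and 52.5 CPM in LY rats and at 99.4, 70.8, 90.4, 186 and 50.9 CPM in Vehicle rats. P17 and P21 were far above the others, as for the leukocyte markers (145, 33.9, 230 and 18.3 CPM against 7.20 to 74.6 CPM). The log2 fold change was 2.61 ± 1.16, and it was 0.47 with only columns of Ptprc below 50 CPM and Epcam of at least 1000 CPM, which drops P17 and P21. Ctss, which trims the class II invariant chain, was at 1.46 ± 0.63 and 0.52 in the same order, and RT1-Ba at 2.60 ± 1.20 and -0.17. The median of the class II list under that rule was -0.18.

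The leukocyte lists themselves were higher in LY rats: 16 of 16 macrophage genes tested lay above 0 with a median of 1.88, and 15 of 15 T cell genes with a median of 2.04. Of these, Lck, a T cell receptor kinase gene, was at 1.70 ± 0.80. It was the 1 gene of both lists at an unadjusted p under 0.05, beside 1.29% of all genes on the higher side. Lyz2, the lysozyme gene of macrophages, was at 2.64 ± 1.29. With the stricter rule the macrophage median was 0.64 and the T cell median -0.48, and without LY rat P17 the T cell median was 0.39.

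Genes of MHC class I lay above 0 in 12 of 20 with a median of 0.02, type I interferon genes in 14 of 21 with 0.17 (0.67 with 1 column per tumour), and interferon-gamma genes in 12 of 15 with 0.29 (-0.53 under the stricter rule), none with an unadjusted p under 0.05. Irf9, a subunit of the interferon-activated transcription factor, was at 0.35 ± 0.19. Cd274, which encodes PD-L1, lay at 30.9, 23, 25.2 and 10.4 CPM in LY rats and at 9.22, 8.74, 16, 8.61 and 14.2 CPM in Vehicle rats. P17, P19 and P21 were above all Vehicle rats and P22 was within their range, with a log2 fold change of 0.98 ± 0.72, or 0.58 under the stricter rule.

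Checkpoint ligands lay above 0 in 10 of 15 tested with a median of 0.19, and 2 had an unadjusted p under 0.05, beside 1.29% of all genes on this side. Tnfsf9, the ligand of the T cell costimulator 4-1BB, lay at 12.6, 3.19, 27.5 and 3.87 CPM in LY rats and at 2.75, 0.786, 1.40, 3.80 and 0.320 CPM in Vehicle rats. P21 and P17 were again the highest, and P19 was below Vehicle rat P7. The log2 fold change was 2.70 ± 0.88 and 0.99 under the stricter rule. Cd80, a costimulatory ligand of antigen-presenting cells, was at 2.27 ± 1.04 and -0.11 in the same order. Of 29 chemokines and cytokines 13 lay above 0 with a median of -0.20. The inflammatory cytokine gene Il1b, at 3.28 ± 1.55 and 0.89 under the stricter rule, was the 1 with an unadjusted p under 0.05. Again 1.29% of all genes had one on this side. The part of leukocyte RNA in these differences was not tested beyond these values.

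**Figure D4:**
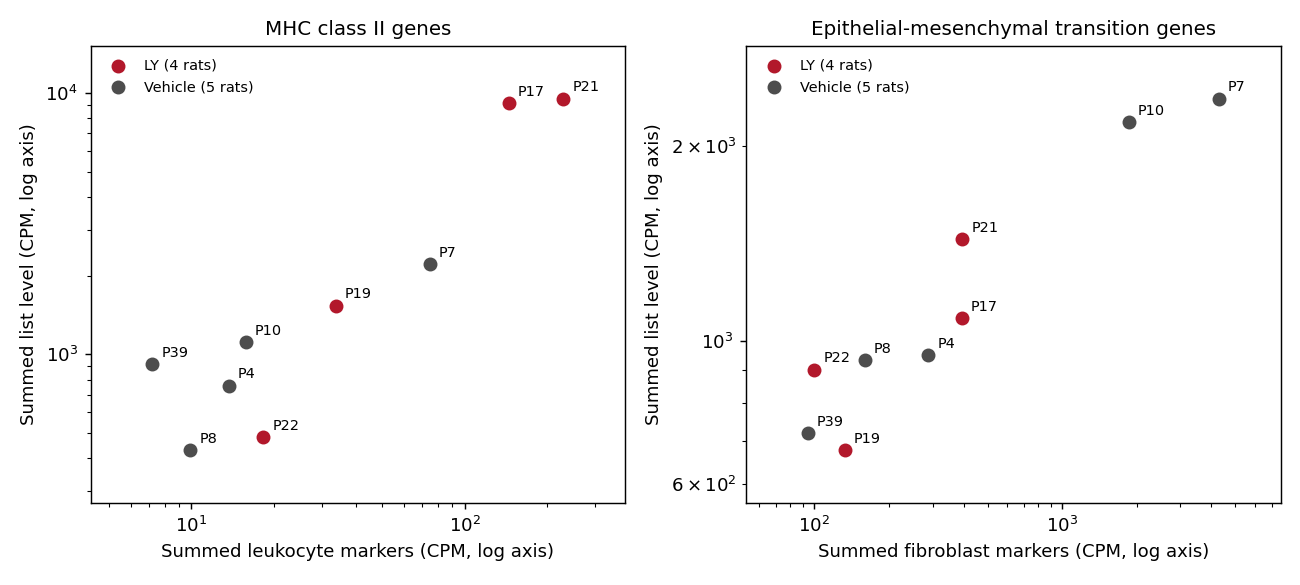
Points are rats, with the summed leukocyte or fibroblast markers (CPM, log axis) on the horizontal axes and the summed level of a gene list (CPM, log axis) on the vertical axes. The LY rats with the most leukocyte markers, P17 and P21 at 145 and 230 CPM, have the highest summed class II genes, 9109 and 9491 CPM, against 429 to 2206 CPM in the Vehicle rats.

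Of 17 Notch genes tested, 5 lay above 0 with a median of -0.22, and 3 had an unadjusted p under 0.05 (5.63% of all genes on this side). The receptor gene Notch1, known for its role in luminal fate, lay at 73.3, 81.6, 89.6 and 131 CPM in LY rats and at 173, 150, 246, 83.3 and 230 CPM in Vehicle rats. P7 was the 1 Vehicle rat within the LY range, and the log2 fold change was -0.91 ± 0.31. It was -0.71 under the stricter rule on Ptprc and Epcam, -0.80 among columns low in Col1a1, -1.04 with 1 column per tumour and -0.75 without the columns of over 14000 genes. Notch3, which is also a pericyte gene and had the smallest p of the pericyte list (1 of 10 above 0), was at -0.84 ± 0.34, and the target gene Hey2, with a count in only 1 of 4 LY rats, at -4.09 ± 1.83. Wnt genes had 5 of 19 above 0, a median of -0.24 and none at an unadjusted p under 0.05.

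Receptor tyrosine kinases and their ligands had 9 of 27 above 0 and a median of -0.18 (0.05 with 1 column per tumour), with 2 at an unadjusted p under 0.05, a share near the 5.63% of all genes on this side. Fgfr1, a fibroblast growth factor receptor gene, lay at 60.3, 62.1, 61.7 and 64.6 CPM in LY rats and at 120, 73.9, 69.6, 99.2 and 91.4 CPM in Vehicle rats. The LY rats were close together and all below the Vehicle rats, with a log2 fold change of -0.54 ± 0.24, or -0.41 among columns low in Col1a1. Fgfr4, at most 0.31 CPM in a LY rat and at most 5.33 CPM in a Vehicle rat, was at -4.11 ± 1.83.

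Basement membrane and adhesion genes lay below 0 in 15 of 16 tested, with a median of -0.51 and 2 at an unadjusted p under 0.05, beside 5.63% of all genes on this side. Lamc1, the laminin gamma 1 chain, lay at 86.8, 111, 62.3 and 170 CPM in LY rats and at 145, 183, 300, 132 and 492 CPM in Vehicle rats. P22 was the 1 LY rat within the Vehicle range, and the log2 fold change was -1.22 ± 0.44. Itga3, an integrin subunit that binds laminin, was at -0.81 ± 0.36, and Lama3, a chain of epithelial laminin, at -1.24 ± 0.69. Among columns low in Col1a1 the median of the list was -0.47, within batch 2 it was -0.84, and with 1 column per tumour it was -0.27. Matrix proteases and inhibitors had 5 of 19 above 0 and a median of -0.39, or 0.33 with 1 column per tumour.

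Fibroblast and matrix genes lay below 0 in 18 of 18 tested, with a median of -2.10 and 4 at an unadjusted p under 0.05, beside 5.63% of all genes on this side. This list holds Col1a1, which the rule for columns used. Fbln1, a matrix glycoprotein gene, lay at 1.89, 5.38, 8.28 and 4.0 CPM in LY rats and at 40.8, 8.25, 9.54, 49.2 and 7.37 CPM in Vehicle rats. P10 and P7 were far above the rest, as for the summed fibroblast markers (1858 and 4283 CPM). The log2 fold change of Fbln1 was -2.24 ± 0.78 and -1.09 among columns low in Col1a1, where the median of the list was -0.06 with 9 of 18 above 0. With 1 column per tumour it was -0.20. Fbn1, which encodes fibrillin, was at -2.49 ± 0.92 and Fap, a surface protease gene of activated fibroblasts, at -3.31 ± 1.57.

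Genes of epithelial-mesenchymal transition had 3 of 15 above 0 and a median of -0.64, with none at an unadjusted p under 0.05. The median was 0.09 among columns low in Col1a1, 0.29 with 1 column per tumour and 0.85 by limma voom, so its direction depended on the setting. Endothelial genes had 1 of 12 above 0 (median -1.15) and pericyte genes 1 of 10 (median -1.36), at the low marker levels given above. Of the markers of further cell types, B and plasma cell genes had 3 of 5 above 0 (median 0.27), neutrophil genes 1 of 4 (median -1.92), adipocyte genes 2 of 7 (median -0.999) and genes of red cells, mast cells, nerve and muscle 4 of 13 (median -0.63). Genes induced by tissue dissociation had 11 of 14 above 0 and a median of 0.24, or 1.01 with 1 column per tumour.

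A second contrast gave the same inhibitor against its own controls: 5 PDL1+LY rats against 7 PDL1 rats, which share no library with the LY and Vehicle rats. By edgeR 0 of 13027 genes (0%) passed at an adjusted p under 0.05, with a smallest adjusted p of 0.339. At an unadjusted p under 0.05 there were 405 (3.11%), 245 higher (1.88%) and 160 lower (1.23%) in PDL1+LY rats. With 1 column per tumour there were 716, of which 183 lay higher and 533 lower. limma voom gave 0 (424 unadjusted), and DESeq2 called 12 of 11480 (0.105%), 10 higher (0.0871%) and 2 lower (0.0174%), beside 610 unadjusted. No overlap between PDL1+LY and PDL1 rats was found for 36 genes on the higher (0.276%) and 4 on the lower side (0.0307%). Those higher by DESeq2 included Irx4, Id4, Csn2 and Acta2.

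Basal and myoepithelial genes lay higher with the inhibitor in this contrast. Of 17 tested, 16 lay above 0 with a median of 1.67, and 13 had an unadjusted p under 0.05 (1.88% of all genes), whereas LY against Vehicle gave 6 above 0, a median of -0.12 and 0 genes. Leaving out each PDL1 or PDL1+LY rat in turn kept the median between 1.53 and 1.89, and with 1 column per tumour, which leaves out PDL1 rat P38 and PDL1+LY rat P23, it was 0.92 with 15 of 17 above 0. For the difference of the 2 contrasts the median of the list was 1.28, 17 of 17 lay above 0 and 5 had an unadjusted p under 0.05, while 532 of all genes (4.08%) had one, 363 higher (2.79%) and 169 lower (1.3%), and 0 passed after adjustment by edgeR. limma voom also gave 0 (479 unadjusted), and DESeq2 called 4 of 12990 genes (0.0308%), Msx3 and Plod1 with the higher (0.0154%) and Cd80 and Havcr2 with the lower effect under anti-PD-L1 (0.0154%), beside 719 unadjusted. For Msx3 the fitted difference was 16.8, and its fold change in LY against Vehicle, given above, is part of it.

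Columns and other cell types differed in this contrast too. Tumours with 2 epithelial columns were 5 of 7 in PDL1+LY and 3 of 9 in PDL1 rats, and for PDL1 rat P38 and PDL1+LY rat P23 the tumour's only sample is labelled DN. By the column order, which no header states, every PDL1+LY rat held a DN column, while PDL1 rats P24, P28 and P30 held none. Acta2 lay at 308 and 18.8 CPM in the 2 columns of tumour P31T3 and at 405 and 33.4 CPM in those of P36T2, both of PDL1+LY rats. Fibroblast and matrix genes lay above 0 in 18 of 18 (median 0.82, or -1.29 with 1 column per tumour) and hypoxia and glycolysis genes in 17 of 18 (median 0.60), whereas T cell genes did in 3 of 15. For the difference of the contrasts the fibroblast list had a median of 2.71 with 18 of 18 above 0 and 7 at an unadjusted p under 0.05, the pericyte list 2.31 with 9 of 10, and the T cell list -3.26 with 0 of 15. The part of the sorted fraction and of stromal RNA in the basal genes was not tested beyond these values.

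Acta2, the smooth muscle actin gene of myoepithelium, had a lowest, median and highest level of 8.03, 20.4 and 76.9 CPM in PDL1 rats and of 124, 141 and 225 CPM in PDL1+LY rats. With columns summed per rat the groups did not overlap, with a log2 fold change of 2.63 (1.80 with 1 column per tumour), and DESeq2 called this gene. Single columns did overlap, at 6.76 to 68.6 CPM in PDL1 and 8.03 to 405 CPM in PDL1+LY rats. In LY against Vehicle its log2 fold change was -0.12 ± 0.73, and the difference of the contrasts was 2.75 with an unadjusted edgeR p of 0.0114. Krt15, a basal keratin gene, ran through 9.01, 37.9 and 137 CPM in PDL1 and 152, 180 and 529 CPM in PDL1+LY rats, again without overlap, with log2 fold changes of 2.32 (1.496 with 1 column per tumour) and, in LY against Vehicle, -0.74 ± 0.72. The difference for Krt15 was 3.06 with an unadjusted edgeR p of 0.00515. Neither difference passed after adjustment over all genes.

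Krt5 ran through 51, 93.7 and 350 CPM in PDL1 and 224, 303 and 865 CPM in PDL1+LY rats, and the groups overlapped (log2 fold change 1.67, or 0.92 with 1 column per tumour). Its values in LY against Vehicle, 0.66 ± 0.50, lay on the same side, and the difference between the contrasts had an unadjusted edgeR p of 0.150. Krt14 was at 1.68 and 0.74 in the same order.

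Irx4, which encodes an Iroquois homeobox factor, lay at 23.7, 13.04, 39.5 and 51.5 CPM in LY rats and at 18.6, 21.9, 8.56, 13.01 and 8.27 CPM in Vehicle rats. P19 was the 1 LY rat within the Vehicle range, with a log2 fold change of 1.18 ± 0.42 and an unadjusted edgeR p of 0.0103. In the second contrast its lowest, median and highest levels were 3.63, 10.2 and 14.02 CPM in PDL1 and 21.5, 28.9 and 53.1 CPM in PDL1+LY rats, without overlap. There the log2 fold change was 1.92 ± 0.37 (0.92 with 1 column per tumour) with an edgeR adjusted p of 0.339, and DESeq2 called the gene. Id4 ran through 15.5, 42.9 and 78.6 CPM in PDL1 and 65.3, 134 and 350 CPM in PDL1+LY rats, with a log2 fold change of 1.85 beside 0.82 in LY against Vehicle. For neither gene was a difference between the contrasts found at an unadjusted p under 0.05 (0.202 for Irx4 and 0.113 for Id4 by edgeR). Irx4 was chosen because both contrasts showed it, after its values were seen.

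**Figure D5:**
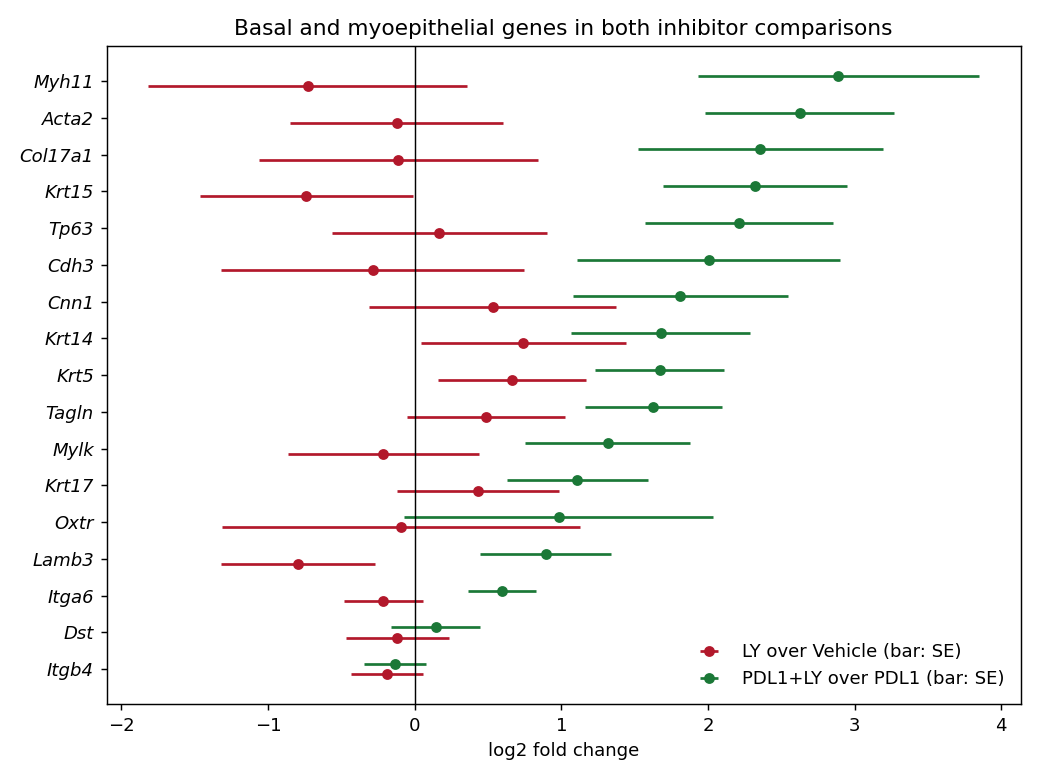
Points are log2 fold changes of basal and myoepithelial genes with their standard errors (bars), for LY over Vehicle and for PDL1+LY over PDL1. With anti-PD-L1 16 of 17 genes lie above 0, and without it 6 of 17 do.

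Values of the genes described for LY against Vehicle were also read in the second contrast. Notch1 was at -0.15, Lamc1 at 0.65, Fgfr1 at 0.13, Ptprs at 0.12, Tgfbrap1 at -0.22 and Fbln1 at 1.01 in PDL1+LY against PDL1. The difference between the contrasts had an unadjusted edgeR p of 0.00379 for Lamc1, 0.00366 for Fbln1, 0.00723 for Ptprs, 0.0445 for Fgfr1, 0.0687 for Notch1 and 0.0977 for Tgfbrap1. Of the genes that lay higher in LY rats, Nop16 was at 0.07 and Tnfsf9 at -0.62, with 0.0182 and 0.00952. None of these passed after adjustment. The genes were chosen for their values in LY against Vehicle, which is part of this difference, so small p-values were favoured by the choice.

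The last comparison set the inhibitor's effect in epithelial columns beside that in leukocyte columns (Ptprc of at least 150 CPM), which 5 LY rats with 7 columns and 8 Vehicle rats with 12 columns had. By edgeR 0 of 12925 genes (0%) had an adjusted p under 0.05 for the difference of the effects, with a smallest adjusted p of 0.165. At an unadjusted p under 0.05 there were 1646 (12.7%), 584 with the higher (4.52%) and 1062 with the lower (8.22%) effect in epithelial columns. limma voom with the rat as a random block gave 0 (1668 unadjusted). Without LY rat P22 6 genes passed by edgeR.

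Leukocyte genes were among these. The macrophage list lay above 0 for 16 of 16 genes with a median of 3.65, 15 of them at an unadjusted p under 0.05, and class II genes for 10 of 11 with a median of 3.15, 8 of them so. In leukocyte columns alone the macrophage list had a median of -2.11 with 0 of 16 above 0, and the class II list -1.23 with 0 of 11 above 0. Leukocyte columns alone gave 0 genes after adjustment by edgeR in LY against Vehicle and 1766 (13.7%) at an unadjusted p under 0.05, 792 higher (6.13%) and 974 lower (7.54%). The class II median in epithelial columns was 1.72, and -0.18 under the stricter rule on Ptprc and Epcam, which kept only P19 and P22 of the LY rats. That rule limits a leukocyte gene, so lower values of leukocyte genes in the LY rats were favoured by it. RT1-Da was at 2.61 in epithelial and -1.23 in leukocyte columns.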

How the data were processed

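RNA of sorted fractions of dissociated tumours was amplified with a SMARTer low-input kit from less than 10 ng, per the labels' protocols. The authors deposited raw counts per gene symbol, as whole numbers in 108 columns, of which 1 matched no sample and was not used. The submitters' processing notes name STAR, FastQC and the build rn6. Not given in the sources used here were the counting tool, the annotation and the strand setting. Overlapping genes and near-identical copies (such as RT1 genes) are therefore uncertain. Batch numbers came from the deposited sample table, whose CD8 fraction the authors did not define and which was not used. Treatment was assigned by the rat and tumour in the column name.

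Counts were summed per rat and tested with edgeR 4.0.16 (R 4.3.3; TMM, filterByExpr, robust quasi-likelihood F test, Benjamini-Hochberg at 0.05) in 1 fit of 21 rats of all 4 treatment groups, with 17 residual degrees of freedom. CPM per rat use TMM-scaled totals, and CPM per column total counts. The SE was taken as the size of the log2 fold change divided by the root of F. Genes detected are the expected number in 4000000 counts drawn without replacement. limma 3.58.1 (voom) and DESeq2 1.42.0 were alternatives. Counts of 12603 genes were simulated for the 21 rats of all 4 groups, with genes changed in the 4 LY rats only. For LY against the 5 Vehicle rats, edgeR recovered 78 of 100 genes changed by a log2 of 2 and 91 of 100 changed by 3. There were 10 false calls. The changed genes all had an average log2 CPM of at least 3, so these rates do not cover the low genes. Apart from these changes the simulated rats shared the same mean levels, without differences in sorted fraction or in other cells. Labels name each rat apart, so p-values measure the spread between rats.

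The members, the lists of genes and the naming rule were chosen with earlier results of these data known. With under 10 genes past the test, the rule named the 20 with the smallest p, up to 3 per list with the smallest p, and Tgfbr1, Tgfbr2, Tgfb1, Smad7, Skil, Pmepa1, Cd274, Krt8, Ptprc, Epcam and Col1a1. Skil, Ski and Itgav were not analysed here, and some genes the rule names are not reported here. Lists got counts and medians and no test. Other settings tried were DESeq2, voom, RLE scaling, omitting the filter, filtering at 5 CPM, the 2 groups alone, batch, stricter marker limits, the deepest column per rat, 1 column per tumour, and leaving out each rat.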

Additional observations from a re-analysis of the deposited data

Results flagged for a closer look

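In 14 of 92 groups of rats examined, 1 rat lay farther from its nearest neighbour than the usual gap within the group (Dixon's test at 95%). For normally distributed values, chance gives this in about 1 of 20 groups. Whether these CPM are so distributed was not checked, and some groups share genes. The 14 of 92 can therefore not be set against that rate. In LY rat P22 these were Nostrin (0.0774 CPM, the other LY rats at 0), Glycam1 (117.5 CPM) and Csn2 (419 CPM, next 14.4), both milk genes. For Nostrin and Glycam1 the other LY rats were at 0, so any count in P22 would have been flagged. In Vehicle rat P7 they were Mmp27 (15.5 CPM, next 1.05), Ptprc (25.1 CPM, next 6.17) and the summed leukocyte markers (74.6 CPM, next 15.8). Vehicle rat P10 stood apart for Csn2 (1302 CPM, next 55.6) and the summed epithelial markers (42857 CPM), P8 for Tgfb1 (28 CPM, next 11.4) and P4 for the summed pericyte markers (59.1 CPM, next 12.2). In the second contrast PDL1 rat P38 stood apart for Acta2 (76.9 CPM, next 29.3) and Krt5 (350 CPM, next 152), and PDL1+LY rat P23 for Krt5 (865 CPM, next 338) and Id4 (350.1 CPM, next 135).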

How the results depend on the processing

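Of LY against Vehicle, edgeR called 0 genes under each setting run, and DESeq2 called 4 with 4 groups and 12 with only the 2 groups compared. Genes at an unadjusted p under 0.05 numbered 902, and 573 by DESeq2 with the 2 groups, 593 with Ptprc under 50 and Epcam at least 1000 CPM, 375 with a filter at 5 CPM, 2095 with no filter, 356 with only the 2 groups and 553 without the columns of over 14000 genes. Leaving out 1 rat gave 750 (without LY rat P21) to 1411 (without LY rat P22). RLE scaling moved the share on the higher side from 18.6% to 10.9% and the median of all genes to -0.10. For PDL1+LY against PDL1 the 405 became 610 by DESeq2 (12 called), 716 with 1 column per tumour, 829 with no filter and 254 (without PDL1+LY rat P34) to 617 (without PDL1 rat P38). For the difference of both effects the 532 became 929 with no filter, 813 with 1 column per tumour, and 400 (without LY rat P21) to 876 (without LY rat P22) with a rat left out, and DESeq2 called 4 genes and edgeR 0 to 1. For epithelial against leukocyte columns edgeR called 0 to 6 genes with a rat left out, with 1086 (without LY rat P21) to 1993 (without Vehicle rat P7) at an unadjusted p under 0.05.

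Of 93 genes named for LY against Vehicle, 10 changed sign under another setting (29 of 1226 values) and 7 when a rat was left out (16 of 835 values), and the cause was not tested. With 1 column per tumour Pmepa1 was at -0.2325, Krt8 at 0.395, Mmp2 at 0.332, Glycam1 at -1.72, Csn2 at 3.325 and Acta2 at 0.07016. The log2 fold change of Tgfbr1 was 0.0918 with batch as a covariate, 0.12 in batch 2 and -0.45 to 0.20 with a rat left out. Smad7 was at 0.13 under the stricter rule on Ptprc and Epcam, and Tgfb1 at -1.01 to 0.0160 with a rat left out. Pmepa1 was at -0.0663 with batch as a covariate, -0.18 in batch 2, -0.26 without the columns of over 14000 genes, -0.48 under the stricter rule, -0.41 among columns low in Col1a1, -0.089 with the deepest column per rat, and -0.27 to 0.82 with a rat left out. Krt8 was at 0.18 by voom, 0.33 in batch 2, 0.27 among columns low in Col1a1 and -0.25 to 0.37 with a rat left out. Glycam1 was at -0.42 by voom, -7.98 with batch as a covariate and -7.51 to 5.03 with a rat left out. Csn2 was at 0.84 by voom, 3.98 in batch 2, 2.09 among columns low in Col1a1 and -4.87 to 2.56 with a rat left out. Acta2 was at 0.79 by voom, 0.33 without the columns of over 14000 genes, 0.54 under the stricter rule, 0.42 among columns low in Col1a1 and -0.63 to 0.43 with a rat left out. Under the stricter rule Cd80 was at -0.11 and RT1-Ba at -0.17.

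The 7 genes named for PDL1+LY against PDL1 kept their sign under each setting run. The batch covariate fit drops rats with columns in 2 batches, LY rat P22 and Vehicle rat P39 among them. No paired analysis was possible because between treatments each rat received 1 of them and replicate numbers follow accession order. Epithelial and leukocyte columns share rats, and there voom with the rat as a block gave 0 genes and 1668 at an unadjusted p under 0.05. With 4 and 5 rats and depths of 5308021 counts upward per column, genes of few counts give the widest errors. Settings on wide columns, 1 column per tumour, batch 2 and DESeq2 with the 2 groups were chosen after seeing the data.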
